A study of Mus musculus with 6 samples.

Results

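The 33 genes described here make sterols and fatty acids or control that synthesis, among 54532 genes in the deposited table. They were chosen by name from textbook pathways, with earlier results of these data known: 6 mevalonate genes, 11 genes of squalene and sterol synthesis, 6 SREBP factors, regulators and a sterol carrier, 5 genes of fatty acid synthesis and desaturation, 4 LXR factors and sterol exporters, and Ch25h, which makes an oxysterol. All 33 were found in the table and all 33 passed the filter on low values, a mean FPKM of at least 0.5 over the 6 libraries. FPKM counts fragments relative to gene length and library size, so levels of different genes and libraries can be compared roughly. Sequence shared between genes and the scaling between libraries limit that comparison, as given below. The means of 32 of the 33 lay above 0.5 FPKM in both groups, and Ch25h passed only through the group in which it was high.

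RNA was sequenced from cultured cells described as vascular smooth muscle cells, which form the muscle layer of arteries, from mice with the genotype label WT. The cell type is the stated one, and most of the contractile markers listed below were under the filter. According to the study's methods the cells were isolated from mouse aortas by collagenase digestion and passaged in culture. Both groups were transduced with an adenoviral vector, 3 libraries with a control plasmid (Ad-Con) and 3 with an overexpression plasmid for pyruvate dehydrogenase kinase 4 (Ad-PDK4), an enzyme that phosphorylates pyruvate dehydrogenase in mitochondria and so switches it off. The study states that both groups also received angiotensin II, which the labels do not mention, so that every library here carries a vector and, by that account, the peptide. The labels give neither the species nor the sequence of the PDK4 insert, and they do not say whether the libraries of a group came from separate cultures. The study calls its replicates of these cells biological, and p-values measure the spread between these libraries.

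Cells obtain cholesterol from acetyl-CoA through the mevalonate pathway, which is followed by the cyclization of squalene and a series of reactions on the sterol ring. SREBP2 and SREBP1 are membrane-bound transcription factors that switch on sterol and fatty acid genes. SCAP escorts them to the Golgi for cleavage when sterols are low, and INSIG proteins hold the complex in the endoplasmic reticulum when sterols are high. Liver X receptors (LXR) respond to oxysterols and raise the exporters ABCA1 and ABCG1, and 25-hydroxycholesterol, the product of CH25H, both restrains SREBP processing and acts as an LXR ligand. In smooth muscle cells of the artery wall, cholesterol export and desaturation of fatty acids bear on lipid loading.

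Each library held 17588942 to 21861872 reads assigned to genes, recovered as whole numbers from FPKM and gene length, and 1 read in a gene of 1 kb was worth 0.0453 to 0.0571 FPKM. Mouse Pdk4, the targeted gene, stood at 10.0 ± 0.469 FPKM (SD, n = 3) under the Ad-Con label and at 7.48 ± 0.162 FPKM (n = 3) under the Ad-PDK4 label. It was thus lower by 0.42 on the log2 scale where the label names its overexpression (log2 fold change -0.42, SE 0.06, adjusted p = 0.00114, limma), so directions below are those of the libraries labelled Ad-PDK4 against those labelled Ad-Con. Of 10 contractile markers of smooth muscle, 3 passed the filter. Acta2 fell from 78.0 ± 0.950 to 36.2 ± 2.40 FPKM (log2 fold change -1.11, adjusted p = 5.28e-06), while Smtn at 8.32 ± 0.114 and 8.44 ± 0.445 FPKM (0.02, adjusted p = 0.839) and Lmod1 at 0.720 ± 0.0944 and 0.570 ± 0.0679 FPKM (-0.29, adjusted p = 0.357) did not pass. Among the 7 below the filter, Myh11 had 2 to 10 reads per library and Tagln 4 to 20, so these 2 defining markers were nearly absent in both groups. Mylk had 188, 168 and 122 reads in Ad-Con and 27, 28 and 24 in Ad-PDK4. Cnn1 (20 to 30 and 8 to 17 reads) and Des (10 to 16 and 3 to 4) were also lower without overlap in FPKM. Ppp1r14a (2 to 6 and 7 to 13 reads) was higher without overlap, and Synpo2 overlapped. In a bulk sample, fewer cells of a type and less RNA per cell cannot be told apart. Of 10 macrophage markers, 6, including Ptprc, Tyrobp and C1qa, had 0 reads in every library, and the summed level of the list was 13.3 to 16.4 FPKM in Ad-Con and 3.69 to 5.50 in Ad-PDK4, most of it Cd68. Of 7 endothelial markers, 2 had 0 reads throughout, and the summed level of the list was 0.617 to 0.798 FPKM in Ad-Con and 0.885 to 1.18 in Ad-PDK4. All 5 adipocyte markers had at most 3 reads in any library. Of 20 listed interferon-stimulated genes, the 18 above 0.5 FPKM in both groups rose, by 1.82 to 6.25 on the log2 scale, while Mx1 and Cxcl10 (means of 0.135 and 0.137 FPKM in Ad-Con, and 2.08 and 51.7 in Ad-PDK4) passed the filter only through the group in which they were high. The summed level of the 20 was 389.8 to 449.8 FPKM in Ad-Con and 4323 to 4402 in Ad-PDK4. These lists moved with the same contrast as the genes below, and their part in those results was not tested.

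Under the Ad-PDK4 label 6 of the 33 genes rose and 11 fell at an adjusted p below 0.05 (limma on log2(FPKM + 0.1), Benjamini-Hochberg over 13423 genes), and 16 did not pass. That is 18.2% higher and 33.3% lower, where over all tested genes 21.8% were called higher and 20.8% lower. The risers were Idi1, Fdps, Lss, Msmo1, Stard4 and Ch25h. The genes that fell were Pmvk, Mvd, Tm7sf2, Nsdhl, Ebp, Sc5d, Insig1, Scd1, Scd2, Abca1 and Abcg1. Ch25h was the single gene called at a fold of at least 2, a limit that 3.95% of tested genes passed upward and 2.68% downward. It passed the filter only through Ad-PDK4, so its call is a description, and the counts of higher genes include it as such. The 2 groups did not overlap for 8 genes that were higher and 12 that were lower, against 27.8% and 26.5% of all tested genes. The median log2 fold change of the 33 was -0.04, with a range from -0.91 to 4.64, and that of all tested genes lay at -0.003.

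**Figure D1:**
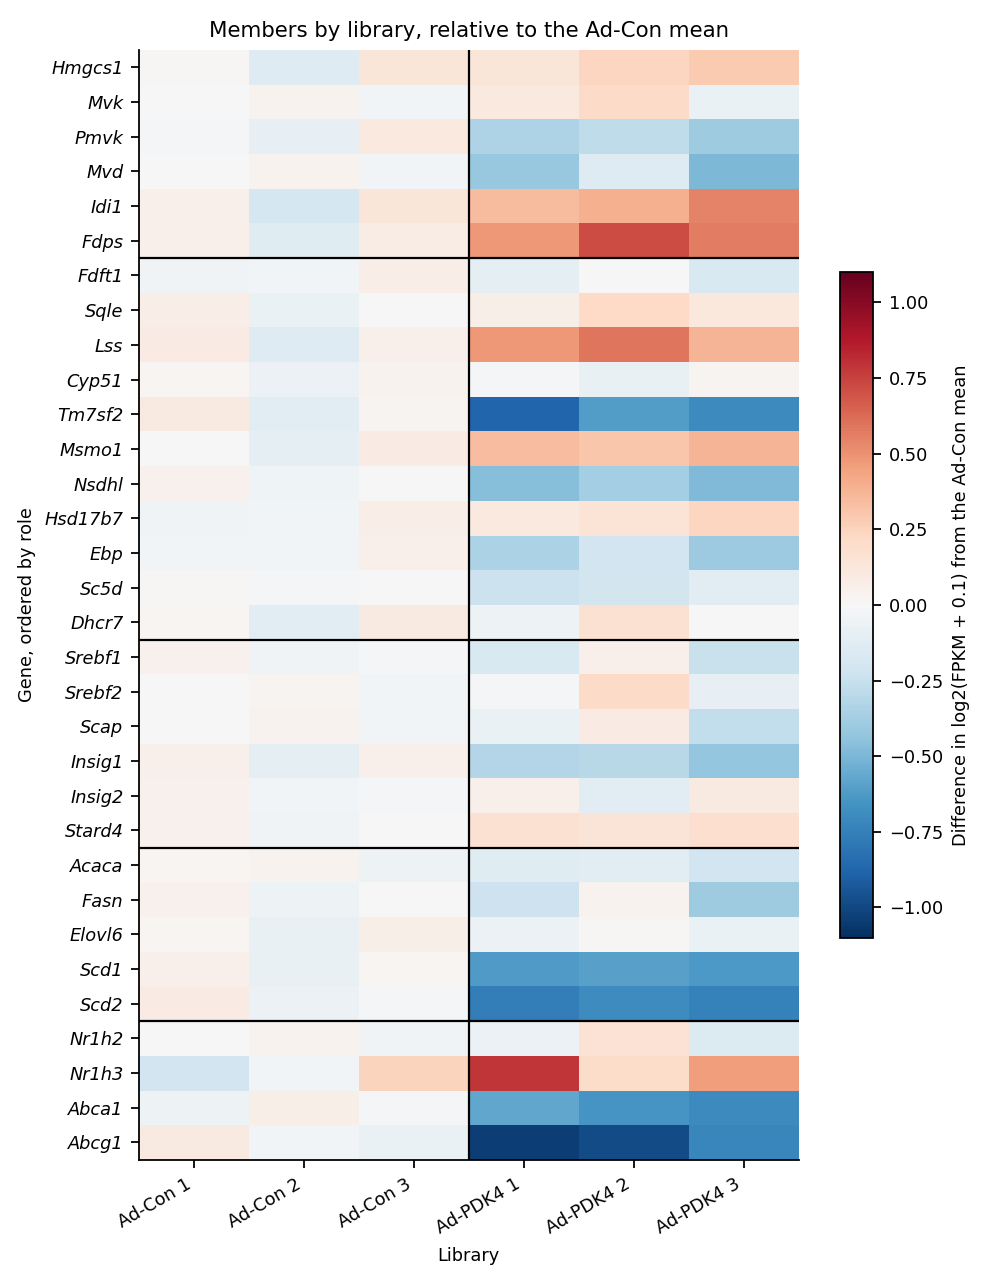
Each cell gives a library's log2(FPKM + 0.1) minus the Ad-Con mean for 1 of 32 genes, with lines between the role groups; Ch25h is left out because its log2 fold change of 4.64 exceeds the color scale. Scd1, Scd2, Abca1, Abcg1, Tm7sf2 and Nsdhl are lower in all 3 Ad-PDK4 libraries, while Idi1, Fdps, Lss and Msmo1 are higher in all 3.

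**Figure D2:**
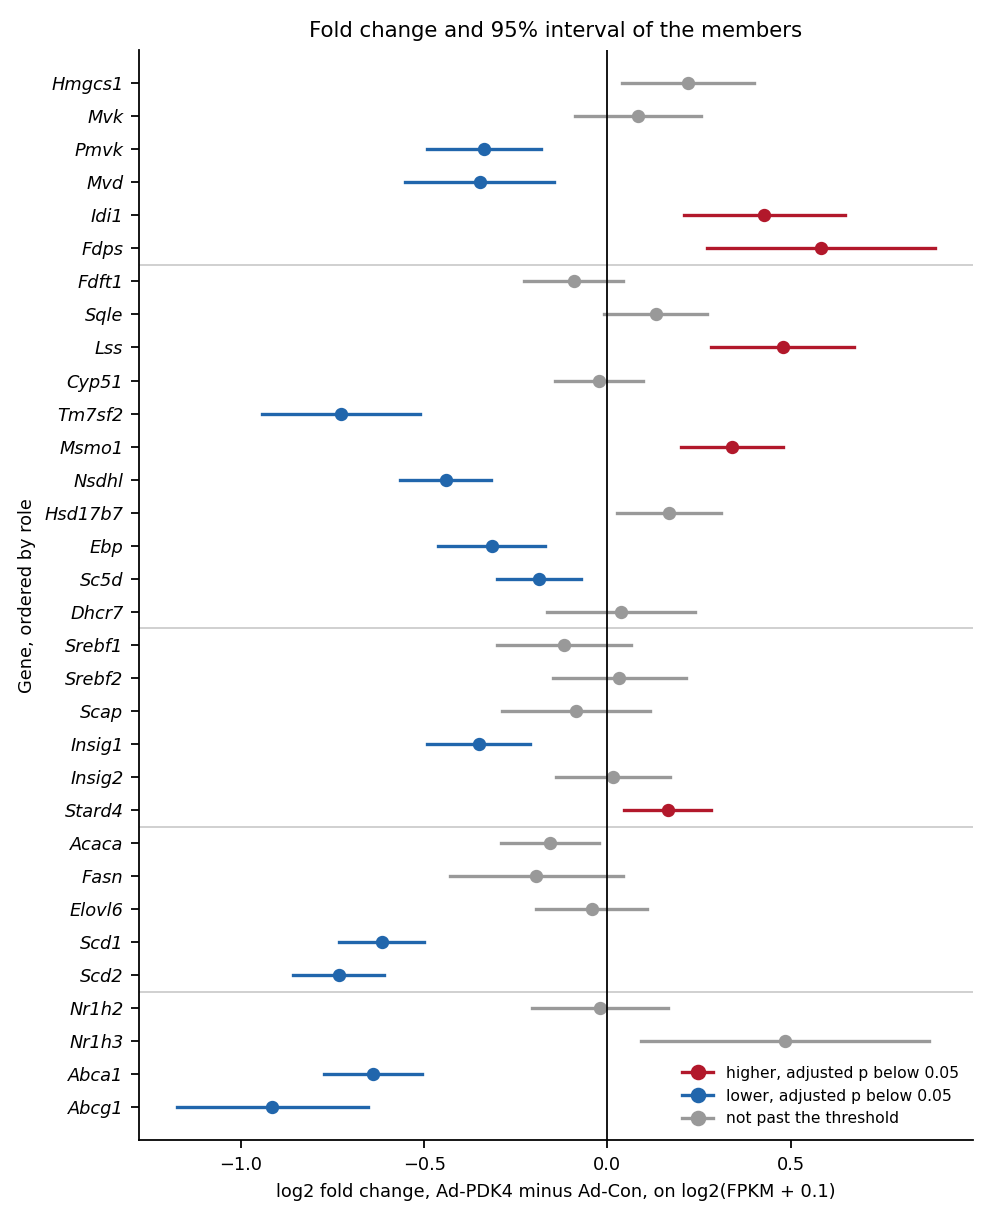
Points give the log2 fold change (Ad-PDK4 minus Ad-Con, on log2(FPKM + 0.1)) of the same 32 genes and bars the 95% interval, n = 3 per group, colored by the call at an adjusted p below 0.05. The largest falls are those of Abcg1 (-0.91), Scd2 (-0.73) and Tm7sf2 (-0.73), and the sterol genes lie on both sides of 0.

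Promoter sequence was available for 26 of the 33 genes in the RefSeq mouse table (build GRCm38.p6), as 250 bases before to 50 after each transcription start. Both strands were searched for 4 short motifs, which may overlap one another. The letters CCAAT, bound by NF-Y, a usual partner of SREBP, were found in 19 of the 26 genes (73.1%), against 41.1% of all 27025 genes in the table. The letters CACGTG of the E-box were found in 6 (23.1%, against 8.09%), namely Hsd17b7, Sc5d, Dhcr7, Scap, Insig1 and Abca1. TCACNCCAC, a form of the sterol regulatory element, was found in Hmgcs1 only (3.85%, against 1.44%), and TTCNNTTTC, the core of an interferon-stimulated response element, in Ebp only (3.85%, against 9.76%). CCAAT was found in 3 of 4 genes that rose, 7 of 8 that fell and 9 of 14 that did not pass, so it occurs in all 3 classes. A match describes letters in a window, and the absence of a match says nothing of the factor. The 7 stretches printed here lie upstream of annotated exons, read 5′ to 3′ on the strand of the gene, and have matches in capitals, where a match on the other strand reads ATTGG or GAAACTGAA. They were chosen as genes with opposite calls and for the motifs they hold. Ch25h (chr19:34475165-34475398, minus strand) is shown as the gene with the largest rise and has none of the 4 motifs. Hmgcs1 (chr13:119690101-119690350, plus) carries the sterol element, Lss (chr10:76531355-76531587, plus) rose, and Nsdhl (chrX:72918412-72918520, plus), Ebp (chrX:8193513-8193762, minus), Insig1 (chr5:28071162-28071362, plus) and Abca1 (chr4:53159896-53160145, minus) fell.
Ch25h: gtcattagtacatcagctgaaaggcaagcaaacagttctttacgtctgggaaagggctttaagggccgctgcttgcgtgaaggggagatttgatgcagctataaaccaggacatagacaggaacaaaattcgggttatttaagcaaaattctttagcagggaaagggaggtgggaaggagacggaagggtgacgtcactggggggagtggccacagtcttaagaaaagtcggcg
Hmgcs1: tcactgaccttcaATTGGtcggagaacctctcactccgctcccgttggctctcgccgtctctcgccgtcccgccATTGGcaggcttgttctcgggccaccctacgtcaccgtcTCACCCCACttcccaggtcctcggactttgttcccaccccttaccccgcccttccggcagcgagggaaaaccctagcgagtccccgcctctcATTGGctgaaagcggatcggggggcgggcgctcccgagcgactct
Lss: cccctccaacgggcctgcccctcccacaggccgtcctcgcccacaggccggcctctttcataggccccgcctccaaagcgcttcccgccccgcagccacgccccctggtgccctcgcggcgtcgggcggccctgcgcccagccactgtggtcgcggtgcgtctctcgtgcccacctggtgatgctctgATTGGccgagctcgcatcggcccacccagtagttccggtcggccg
Nsdhl: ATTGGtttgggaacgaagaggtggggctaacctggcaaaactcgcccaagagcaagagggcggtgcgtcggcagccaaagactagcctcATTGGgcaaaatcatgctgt
Ebp: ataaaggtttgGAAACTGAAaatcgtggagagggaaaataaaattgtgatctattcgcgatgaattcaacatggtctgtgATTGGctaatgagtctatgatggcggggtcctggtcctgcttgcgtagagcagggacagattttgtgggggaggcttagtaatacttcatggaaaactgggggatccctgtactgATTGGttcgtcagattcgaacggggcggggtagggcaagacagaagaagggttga
Insig1: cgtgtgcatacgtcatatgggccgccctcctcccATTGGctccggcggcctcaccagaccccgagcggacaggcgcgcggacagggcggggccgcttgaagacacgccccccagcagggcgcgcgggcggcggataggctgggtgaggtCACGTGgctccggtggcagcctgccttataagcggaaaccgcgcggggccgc
Abca1: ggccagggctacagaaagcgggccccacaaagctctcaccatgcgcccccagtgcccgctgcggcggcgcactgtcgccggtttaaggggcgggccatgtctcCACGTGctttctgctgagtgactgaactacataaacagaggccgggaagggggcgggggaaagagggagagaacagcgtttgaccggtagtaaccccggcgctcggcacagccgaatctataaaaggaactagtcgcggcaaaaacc

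Of the 6 mevalonate genes, Idi1 and Fdps rose (33.3%, against 21.8% of all tested genes) and Pmvk and Mvd fell (33.3%, against 20.8%). Their median log2 fold change was 0.15. Calls in both directions were thus common among all tested genes as well. Pmvk, the second of the pathway's kinases (chr3:89454541-89469013), stood at 16.0 ± 1.13 FPKM in Ad-Con and 12.7 ± 0.497 in Ad-PDK4 (n = 3 each, log2 fold change -0.34, SE 0.07, adjusted p = 0.00494, limma). Mvd, the decarboxylase that acts next, went from 67.3 ± 1.61 to 53.2 ± 7.06 FPKM (-0.35, SE 0.09, adjusted p = 0.0146). Neither group pair overlapped, although the Ad-PDK4 libraries of Mvd were spread from 47.9 to 61.2 FPKM, and its call was lost when Ad-PDK4 replicate 1 was left out (adjusted p = 0.0552). Idi1, which isomerizes isopentenyl diphosphate, the product of Mvd, rose from 14.5 ± 1.69 to 19.4 ± 1.42 FPKM (0.43, SE 0.09, adjusted p = 0.00815). Consecutive steps of the pathway were therefore called in opposite directions. Fdps, the farnesyl diphosphate synthase, had 1.24, 1.07 and 1.26 FPKM in Ad-Con and 1.69, 2.01 and 1.80 in Ad-PDK4 (0.58, SE 0.13, adjusted p = 0.00973). The groups did not overlap, but each library had only 79 to 167 reads of it, and 26.7% of its exon bases are shared with Gm43738 on the same strand, so that its level is uncertain. For Idi1, 33.3% of the sequence is shared with other annotated genes, in stretches of 75 bases, and its value carries the same doubt. That share includes Gm48574, which overlaps Idi1 on the opposite strand. Hmgcs1, which makes the HMG-CoA that enters the pathway, stood at 25.7 ± 2.42 and 29.8 ± 1.59 FPKM without overlap and did not pass (0.22, SE 0.08, adjusted p = 0.0538). The counting's strand setting is not given in the sources used here, and 12.1% of its exon bases lie opposite the antisense gene Gm48342. Mvk, mevalonate kinase, overlapped between groups (0.08, 95% interval -0.09 to 0.26, adjusted p = 0.408).

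Of the 11 genes from squalene to cholesterol, Lss and Msmo1 rose (18.2%, against 21.8% of all tested genes). Tm7sf2, Nsdhl, Ebp and Sc5d fell (36.4%, against 20.8%), and 5 did not pass. The median log2 fold change of the 11 was -0.02. Lss, the cyclase that closes the sterol ring to lanosterol (chr10:76531588-76557138), had 11.6, 9.86 and 11.3 FPKM in Ad-Con and 15.2, 16.5 and 14.1 in Ad-PDK4. All 3 Ad-PDK4 libraries were above all 3 Ad-Con libraries (0.48, SE 0.08, adjusted p = 0.00281, limma). Msmo1, the first enzyme in removing the methyl groups at carbon 4 of the ring, rose from 22.8 ± 1.49 to 28.9 ± 0.685 FPKM (0.34, SE 0.06, adjusted p = 0.00291). Nsdhl, which works with Msmo1 in the same removal (chrX:72918557-72958514), had 34.8, 32.6 and 33.9 FPKM in Ad-Con and 24.4, 26.1 and 24.1 in Ad-PDK4. It was lower in every Ad-PDK4 library (-0.44, SE 0.05, adjusted p = 0.000456), so 2 enzymes of 1 reaction series were called in opposite directions. Hsd17b7, the remaining enzyme of that series, did not pass (0.17, SE 0.06, adjusted p = 0.0582), with means of 11.4 and 12.8 FPKM.

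Tm7sf2, a sterol C14 reductase, showed the largest fall of this group. It had 8.34, 7.11 and 7.94 FPKM in Ad-Con and 4.21, 5.05 and 4.75 in Ad-PDK4. The groups lay well apart (-0.73, SE 0.09, adjusted p = 0.000568), a ratio of means of 1.67. The annotation behind this value is uncertain, since 12.1% of its exon bases overlap Vps51 on the same strand. The span in the deposited table (chr19:6062821-6077197) also differs from that of GENCODE M21, as do those of Scd1, Scd2, Abcg1 and Ch25h below. Ebp, the isomerase that shifts the ring double bond, fell from 28.4 ± 0.991 to 22.9 ± 1.56 FPKM (-0.32, SE 0.06, adjusted p = 0.00492). Sc5d, the C5 desaturase that acts after it, fell from 33.8 ± 0.360 to 29.8 ± 1.19 FPKM (-0.19, SE 0.05, adjusted p = 0.0179), a call lost under 4 of 15 alternative settings. The 4 genes without a call and with overlapping groups were Fdft1, squalene synthase (-0.09, 95% interval -0.23 to 0.04), Sqle, the epoxidase (0.13, -0.01 to 0.27), Cyp51, the C14 demethylase (-0.02, -0.14 to 0.10), and Dhcr7, the last reductase (0.04, -0.16 to 0.24). The interval of Cyp51 was the narrowest of these. Of Fdft1's exon bases, 18.3% lie opposite Ctsb, and 38.9% of its sequence is shared with other annotated genes, the overlapping Ctsb included.

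Of the 6 SREBP factors, regulators and the sterol carrier, Stard4, the carrier, rose (16.7%, against 21.8% of all tested genes). Insig1 fell (16.7%, against 20.8%), and 4 did not pass. Srebf1, which encodes SREBP1, stood at 39.2 ± 1.15 FPKM in Ad-Con and 36.2 ± 4.00 in Ad-PDK4 (-0.12, 95% interval -0.30 to 0.06, adjusted p = 0.262, limma). Srebf2, which encodes SREBP2, stood at 42.4 ± 0.857 and 43.6 ± 4.88 FPKM (0.03, -0.15 to 0.21, adjusted p = 0.767). Scap did not pass either (-0.09, -0.29 to 0.12, adjusted p = 0.465). For all 3 the groups overlapped, and the highest Ad-PDK4 value was that of replicate 2. These transcripts do not report on cleavage of the proteins, which RNA counts cannot show. Within each library the ratio of Srebf2 to Srebf1 was 1.05 to 1.13 in Ad-Con and 1.20 to 1.21 in Ad-PDK4, where the exact two-sided permutation p was 0.1, the smallest that 3 against 3 libraries allow, and 0.167 after Benjamini-Hochberg adjustment over 5 ratios. The INSIG genes parted. Insig1, a SREBP target as well as its retention factor (chr5:28071363-28078662), had 116, 104 and 116 FPKM in Ad-Con and 89.5, 91.0 and 83.4 in Ad-PDK4. Every Ad-PDK4 library was below every Ad-Con library (-0.35, SE 0.06, adjusted p = 0.00262). Insig2 stood at 24.4 ± 0.662 and 24.6 ± 1.95 FPKM (0.01, 95% interval -0.14 to 0.17, adjusted p = 0.887). The ratio of Insig1 to Insig2 was 4.61 ± 0.241 in Ad-Con and 3.59 ± 0.435 in Ad-PDK4 without overlap (exact permutation p = 0.1, again the smallest possible, adjusted 0.167). Stard4, a sterol carrier between membranes, rose from 13.7 ± 0.406 to 15.4 ± 0.268 FPKM (0.17, SE 0.05, adjusted p = 0.0333), a small difference whose call was lost under 8 of 15 settings.

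The stearoyl-CoA desaturases, which put the first double bond into saturated fatty acids, fell together and included the most abundant transcript of the set. The summed level of the 33 genes was 1506 ± 51.8 FPKM in Ad-Con and 1202 ± 49.4 in Ad-PDK4, and Scd2 alone stood at 488 ± 27.7 and 293 ± 7.17 FPKM. Scd2 (chr19:44293676-44306864), the most abundant of the 33, had 519, 465 and 480 FPKM in Ad-Con and 287, 301 and 292 in Ad-PDK4 (-0.73, SE 0.05, adjusted p = 3.12e-05, limma). The groups lay far apart in relation to their spread. Scd1 (chr19:44394451-44407709) had 151, 137 and 147 FPKM in Ad-Con and 93.7, 95.9 and 93.6 in Ad-PDK4 (-0.62, SE 0.05, adjusted p = 5.24e-05). Its Ad-PDK4 libraries were close together, with an SD of 1.28 FPKM around a mean of 94.4 FPKM. Of their sequence, 4.72% in Scd1 and 4.49% in Scd2 recurs in other annotated genes in stretches of 75 bases. The ratio of Scd2 to Scd1 was 3.28 to 3.44 in Ad-Con and 3.06 to 3.14 in Ad-PDK4 (exact two-sided permutation p = 0.1, adjusted 0.167). That p is the smallest that 3 against 3 libraries allow, so this test could not have passed 0.05. Scd1 and Scd2 were thus lower among the 5 genes of this group (40.0%, against 20.8% of all tested genes). The others of the group, Fasn, Acaca and Elovl6, did not pass. Enzymes outside the group, such as Acss2, which fell, are given with the wider list below. Fasn, the fatty acid synthase, had 87.0, 80.8 and 84.5 FPKM in Ad-Con and 71.9, 86.1 and 63.9 in Ad-PDK4 (-0.19, SE 0.10, adjusted p = 0.163), with replicate 2 of Ad-PDK4 inside the Ad-Con range. Acaca, acetyl-CoA carboxylase, stood at 10.9 ± 0.360 and 9.75 ± 0.329 FPKM without overlap (-0.16, SE 0.06, adjusted p = 0.0598), and 61.8% of its sequence recurs in 1 processed pseudogene. The ratio of Fasn to Acaca was 7.73 ± 0.438 and 7.57 ± 0.942 (exact two-sided permutation p = 0.9, adjusted 0.9). Elovl6, which elongates palmitate, overlapped between groups (-0.04, 95% interval -0.19 to 0.11, adjusted p = 0.63).

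Both exporters of cholesterol fell, whereas neither LXR gene passed. Abca1, which loads cholesterol onto lipid-poor apolipoprotein (chr4:53030787-53159895), had 26.1, 28.3 and 26.9 FPKM in Ad-Con and 18.2, 17.2 and 16.7 in Ad-PDK4. No Ad-PDK4 library came near the Ad-Con range (-0.64, SE 0.06, adjusted p = 9.13e-05, limma). Abcg1, which loads more mature HDL particles (chr17:31057698-31115777), had 4.27, 3.89 and 3.76 FPKM in Ad-Con and 1.88, 1.95 and 2.37 in Ad-PDK4. It was the largest fall among the 33 genes (-0.91, SE 0.11, adjusted p = 0.000472, ratio of means 1.92). Without Ad-PDK4 replicate 3, the highest of its group, it passed a fold of 2. The ratio of Abca1 to Abcg1 was 6.85 ± 0.640 in Ad-Con and 8.51 ± 1.35 in Ad-PDK4 with overlap (exact two-sided permutation p = 0.3, adjusted 0.375). Nr1h2, the LXR beta gene, stood at 33.3 ± 0.934 and 32.9 ± 3.70 FPKM (-0.02, 95% interval -0.21 to 0.16, adjusted p = 0.861). Nr1h3, the LXR alpha gene, had 2.44, 2.79 and 3.38 FPKM in Ad-Con and 4.98, 3.29 and 3.96 in Ad-PDK4. Its groups overlapped and the difference did not pass, although the estimate pointed upward (0.49, 0.09 to 0.88, adjusted p = 0.0504), opposite to the exporters. It passed under 5 of the 14 alternative settings that tested it.

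**Figure D3:**
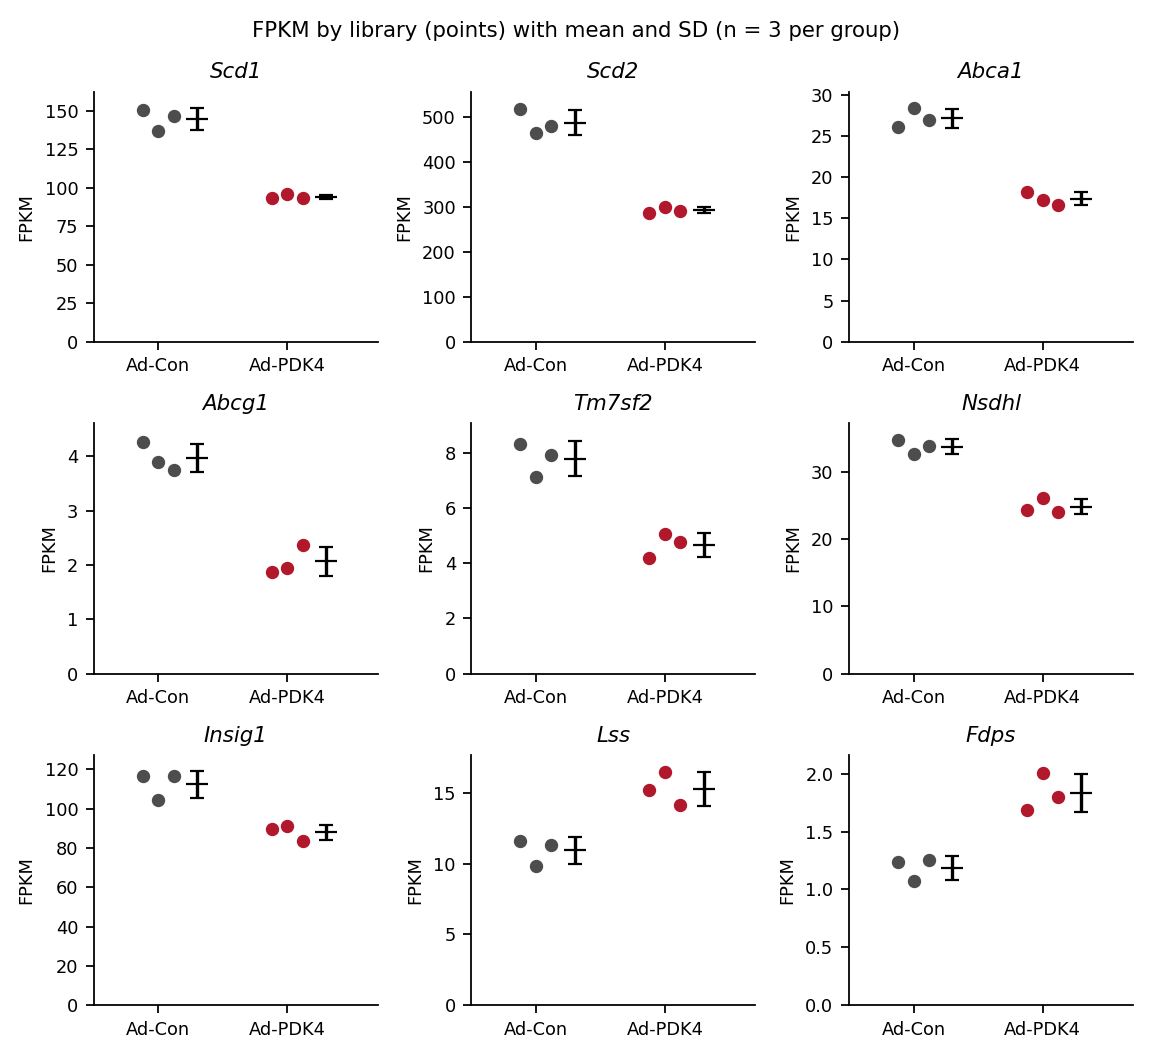
Each panel gives FPKM on a linear axis from 0 for 1 gene, a point per library, with mean and SD beside each group (n = 3). Scd1, Scd2, Abca1, Abcg1, Tm7sf2, Nsdhl and Insig1 are lower in every Ad-PDK4 library than in any Ad-Con library, and Lss and Fdps are higher in each.

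Ch25h showed by far the largest difference of the 33. This gene without introns (chr19:34473786-34475135) encodes cholesterol 25-hydroxylase, known as an interferon-inducible enzyme in macrophages. It had 5, 2 and 5 reads in Ad-Con and 114, 130 and 270 in Ad-PDK4. In FPKM it stood at 0.182, 0.0844 and 0.204 in Ad-Con and at 4.64, 5.50 and 9.05 in Ad-PDK4. It was near the detection limit in all Ad-Con libraries and readily counted in all Ad-PDK4 libraries, among which replicate 3 was the highest. The log2 fold change was 4.64 (SE 0.29, adjusted p = 1.39e-05, limma), and the ratio of means was 40.8. Since Ch25h passed the filter only through Ad-PDK4, this adjusted p is descriptive. Over pooled reads, 12 against 514, the ratio scaled by library size was 41.5 (95% interval 23.6 to 80.9, counting error only). The log2 fold change ran from 2.63 with a pseudocount of 1 to 5.29 with one of 0.01, since the Ad-Con level is so low. The opposite-strand gene Gm26902 covers 11.5% of its exon bases. Of the macrophage markers given above, Csf1r had 11, 23 and 35 reads in Ad-Con and 56, 62 and 61 in Ad-PDK4, whereas Cd68 fell (-1.74) and Ptprc, Tyrobp, C1qa, C1qb, C1qc and Itgam had 0 reads throughout. The interferon-stimulated genes rose with it, as given above, and their part in this result was not tested.

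The other sterol hydroxylase genes of the wider list, which is described below, did not follow Ch25h. Cyp27a1, the mitochondrial 27-hydroxylase of cholesterol, had 22.6, 21.6 and 23.6 FPKM in Ad-Con and 10.2, 10.4 and 9.56 in Ad-PDK4 (-1.16, SE 0.06, adjusted p = 5.02e-06, limma). Cyp39a1, an oxysterol 7-hydroxylase, had 5.15, 4.87 and 5.40 FPKM in Ad-Con and 2.59, 2.34 and 3.38 in Ad-PDK4 (-0.88, SE 0.13, adjusted p = 0.00131). Both were lower in every Ad-PDK4 library. Cyp7b1, which acts on 25-hydroxycholesterol and was chosen after its values were seen, overlapped between groups (-0.07, adjusted p = 0.695), with means of 2.55 ± 0.193 and 2.44 ± 0.355 FPKM. Osbp, an oxysterol-binding protein gene, rose (0.24, SE 0.08, adjusted p = 0.0341), and its relative Osbpl8 fell (-0.27, SE 0.07, adjusted p = 0.0169). Both were also chosen after their values were seen. On the scale of level, Ch25h in Ad-PDK4 at 6.40 ± 2.34 FPKM was still below Cyp27a1 at 10.1 ± 0.452 FPKM in the same libraries.

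**Figure D4:**
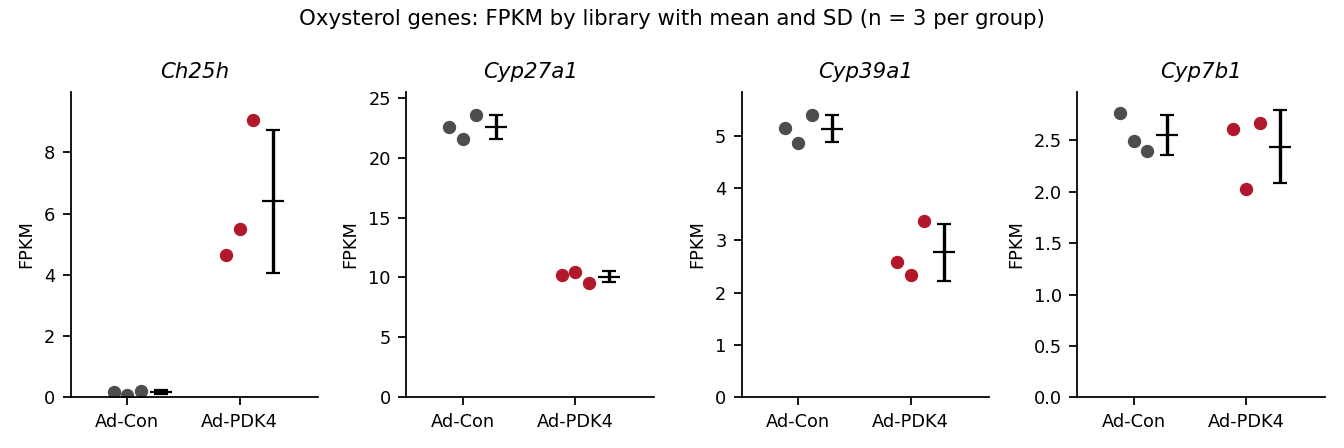
Each panel gives FPKM on a linear axis from 0 for an oxysterol gene, a point per library, with mean and SD beside each group (n = 3). Ch25h is higher in all 3 Ad-PDK4 libraries, Cyp27a1 and Cyp39a1 are lower in all 3, and the groups of Cyp7b1 overlap.

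A wider list of 54 genes of the same pathways was counted in the same way. It was written from textbook knowledge with earlier results of these data known, so it is not an independent check. Of its 49 tested genes, 9 rose (18.4%, against 21.8% of all tested genes), 17 fell (34.7%, against 20.8%) and 23 did not pass. Their median log2 fold change was -0.07. The largest falls were those of Cyp27a1 and Cyp39a1, given above, and of Acss2, which makes acetyl-CoA from acetate in the cytosol (6.18 ± 0.433 to 3.40 ± 0.0941 FPKM, -0.84, SE 0.08, adjusted p = 0.000106, limma). The largest rises were those of 3 genes with separate tasks. Aacs, which activates acetoacetate for lipid synthesis, rose from 23.5 ± 0.872 to 36.6 ± 4.49 FPKM (0.63, SE 0.09, adjusted p = 0.000792). Npc2, which carries cholesterol out of lysosomes, rose from 119 ± 4.67 to 180.0 ± 7.81 FPKM (0.60, SE 0.05, adjusted p = 8.05e-05). Ggps1, which makes geranylgeranyl diphosphate from the product of Fdps, had 8.75, 7.47 and 9.15 FPKM in Ad-Con and 11.6, 11.0 and 13.2 in Ad-PDK4 (0.50, SE 0.10, adjusted p = 0.00468). Cyp27a1 was the only one of these 6 past a fold of 2.

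Among the Ad-PDK4 libraries, replicate 2 had the highest value of its group for 21 of the 33 genes (63.6%), against 39.8% of all tested genes, and replicate 1 for 2 (6.06%, against 23.8%). Mvd, Fasn, Srebf1, Srebf2, Scap and Nr1h2 were among the genes with replicate 2 highest, and these 6 had wider SDs in Ad-PDK4 than in Ad-Con. Without that library Srebf1 and Fasn passed the threshold as lower, Fasn at a log2 fold change of -0.31. The falls of Scd1, Scd2, Abca1, Abcg1, Tm7sf2, Nsdhl, Insig1, Ebp and Pmvk and the rises of Idi1, Fdps, Lss, Msmo1 and Ch25h kept their calls under every setting that tested them.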

How the data were processed

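The 6 libraries, described as mouse vascular smooth muscle cells, were grouped by their treatment labels and numbered by their titles. The authors deposited FPKM per gene and library, with gene length in bases and no pooling. The submitters' processing notes name CASAVA 1.8, fastp, HISAT2 2.0.5, featureCounts 1.5.0-p3 and DESeq2 1.20.0, and the build GRCm39. The deposited coordinates equal those of GENCODE M21 (GRCm38) for 98.33% of the 54409 identifiers found there, including 28 of the 33 members. Coordinates are therefore given on GRCm38. Tm7sf2, Scd1, Scd2, Abcg1 and Ch25h have other spans in that release, so their annotation is less certain. The annotation release and strand setting are not given in the sources used here. The labels name a SMARTER kit and the study's methods a NEBNext kit for library preparation.

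FPKM times gene length gave whole reads for 100% of non-zero values (tolerance 0.01 reads), and the FPKM were already scaled by size factors between libraries. Because the unit is FPKM, log2(FPKM + 0.1) was tested with limma 3.58.1 in R 4.3.3 (empirical Bayes with trend and robust, no covariates), with Benjamini-Hochberg adjustment over the 13423 genes of mean FPKM at least 0.5. Genes were called at an adjusted p below 0.05. Every adjusted p is from limma unless named as that of a ratio, and fold changes on this scale understate those of low genes. Intervals of read ratios cover counting error only. The fit was tested on simulated data. Promoters came from RefSeq, and Fdps, Fdft1, Sqle, Stard4, Scd1, Scd2 and Abcg1 had no entry there.

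The text names all 33 members, Pdk4, the 3 largest rises and falls among the wider list, and markers that check the cell type. Values per library are given for those of the 33 members with a fold of at least 1.5 past the threshold, and for others named beside them. The members and lists were chosen with earlier results of these data known. The 15 alternatives were pseudocounts of 1 and 0.01, no filter, a mean FPKM of at least 5, rescaling to TPM, quantile normalization, moderation without trend and robust, a replicate block, limma-voom on the recovered reads, and leaving out each library. Same-numbered libraries did not deviate together (correlations -0.046, -0.0311 and -0.00129), so the numbers were not taken to pair them.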

Additional observations from a re-analysis of the deposited data

How the results depend on the processing

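No result for the 33 genes changed direction while called. Genes called at a fold of at least 2 numbered 1 (Ch25h), 0 with a mean FPKM of at least 5, which leaves Ch25h untested, and 1 to 2 when each library was left out. The wider list's 17 genes that fell became 11 to 17 when each library was left out, with 11 without Ad-PDK4 replicate 1. The median log2 fold change of the squalene and sterol genes was -0.02 and went to -0.094 under quantile normalization, and that of the fatty acid genes was -0.19, with -0.31 to -0.13 when each library was left out (lowest without Ad-PDK4 replicate 2). The 6 risers and 11 fallers became 5 to 9 and 9 to 13 over the 15 alternatives. Of these calls, those of Stard4, Mvd and Sc5d were lost under some setting.

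With the replicate block, 6 genes rose and 11 fell of the 33, with Hmgcs1 gained and Stard4 lost, and 2759 rose and 2626 fell of all tested. The 2928 higher and 2798 lower calls over all genes became 3361 and 2430 after rescaling to TPM and 2531 and 3132 under quantile normalization, and these scalings moved the median of all genes to 0.04 and -0.04. With 3 libraries per group, differences of the size of Hmgcs1, Hsd17b7 and Acaca lie at the limit of what could be called, and the reads of Ch25h in Ad-Con and of Fdps limit their fold changes.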

Other observations

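Ch25h lies on chromosome 19 among interferon-inducible genes, and its neighbors were looked up after its value had been seen. The share of all tested genes called higher was 21.8%, and that called lower was 20.8%. Within 250 kb on either side of Ch25h, 10 other genes were tested. Of these 7 rose (limma, adjusted p below 0.05): Ifit1 by 5.05 on the log2 scale, Ifit3b by 3.64, Ifit3 by 3.46, Ifit2 by 2.05, Ifit1bl1 by 1.68, Ifit1bl2 by 1.54 and Fas, a death receptor, by 1.08. Ifit1bl2, with means of 0.278 FPKM in Ad-Con and 0.995 in Ad-PDK4, passed the filter only through the group in which it was high. The Ifit genes encode antiviral RNA-binding proteins, share sequence with one another, and some are in the interferon-stimulated list above. Their rises are therefore not separate observations, and their part in the result for Ch25h was not tested. Acta2 and Lipa, the lysosomal acid lipase that frees cholesterol from its esters, fell there (-1.11 and -0.73), and Stambpl1 did not pass (0.28, adjusted p = 0.0991). Around Scd2, in a window of the same size, 7 other genes were tested: Chuk (0.43) and Bloc1s2 (0.21) rose, Scd1 fell, and 4 did not pass.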
